A study of Danio rerio with 15 samples.

Results

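The genes described here encode the machinery by which the proximal tubule takes up filtered protein: lrp2a (megalin), cubn (cubilin), amn (amnionless) and dab2 (an endocytic adaptor). They were chosen by name, for this function, and each symbol was represented by the RefSeq accession with the highest summed count. Of the 4 symbols, 3 had a row in the count tables, against 18545 symbols and 33298 accessions in the whole series. The accessions were NM_001194987.1 for lrp2a, XM_021470374.1 for cubn and XM_021474800.1 for amn, each the only accession of its symbol. All 3 passed the filter on low counts. No accession in the tables matched dab2, which was not analysed here.

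Megalin is a very large receptor of the LDL receptor family, and cubilin is a peripheral membrane protein with no membrane anchor of its own, which amnionless carries to the cell surface. Together they bind filtered albumin, vitamin carriers and hormones at the brush border, and clathrin-coated vesicles bring the cargo to endosomes and lysosomes while the receptors recycle. In zebrafish larvae these receptors act in the proximal part of the pronephros, and cubilin and amnionless are also known from the lysosome-rich cells of the intestine.

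RNA was sequenced from pronephric ducts dissected from zebrafish at 72 h after fertilization (hpf). Mutants were represented by 8 libraries labelled as actl6a knockout, described as homozygous mutants, and they were compared with 7 libraries of siblings labelled WT from the same line, which was made with CRISPR/Cas9. Whether siblings included heterozygotes is not stated. Fish of both groups carried a Na,K-ATPase alpha1A4 (atp1a1a.4) GFP transgene that lights up the pronephric epithelium, 15 embryos were dissociated per group, and about 10 glowing fragments were collected by eye. Nothing states that libraries came from separate embryos or clutches, so p-values measure the spread between these libraries, which may be technical.

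Total counts ranged from 1583052 to 4013852 in mutant libraries and from 1698007 to 3084051 in sibling libraries. Mutant libraries were all sequenced under one index and sibling libraries under another, so index and genotype cannot be told apart. As a check of the labels, actl6a fell in mutants, with 24.9 ± 11.5 CPM (counts scaled to the library's size) in mutants and 84.2 ± 10.9 CPM in siblings (SD, n = 8 and 7), and all 8 mutant libraries lay below every sibling, which held for 0.736% of all tested accessions. Mutant replicates 4, 5, 6 and 8 stood apart, with 25684 to 27413 detected accessions against at most 21970 in the other mutants. They were also the deepest mutant libraries, at 2623014 to 4013852 counts against at most 2274156, so detection and depth go together among mutants. Sibling replicate 1, the deepest sibling, had the most detected accessions and the most blood and vessel transcripts of its group. At 3084051 counts it had 23992 detected accessions, fewer than each of mutant replicates 4, 5, 6 and 8. Markers of other tissues differed too: the epidermis list summed to 2390 to 13526 CPM in mutants and 499 to 2734 CPM in siblings, and the erythrocyte list to 604 to 5887 CPM in mutants and 81.4 to 2755 CPM in siblings. The skeletal muscle list had a lower mean sum in mutants, at 2441 ± 1651 CPM in mutants and 6138 ± 6718 CPM in siblings (SD; exact permutation p = 0.330, n = 8 and 7), with 0 of 13 tested genes called by edgeR, 6 lower at an unadjusted p under 0.05, 2 called lower by DESeq2 and 1 higher by limma. The part of these tissues in the results below was not tested, beyond fits without those libraries and fits with the share of epidermis markers, or of erythrocyte and endothelium markers, as a term.

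All 3 receptor genes had lower mean levels in mutants, and amn fell by the test across all genes. The log2 fold change was -1.85 for amn, -1.72 for cubn and -1.21 for lrp2a, of which the last 2 were not called, and for each gene mutant and sibling libraries overlapped. Levels varied more than 9-fold among siblings themselves, and the same 4 sibling libraries were the highest for all 3 genes. Of 12914 accessions tested, 19.2% differed between the groups at an adjusted p under 0.05, and 5.54% were lower in mutants. With 1 of 3 genes called lower, the count is too small to be read against that share.

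amn, whose product carries cubilin to the apical membrane, had a lowest level of 6.21, a median of 15.8 and a highest level of 89.3 CPM in mutant libraries, against 12, 98.8 and 187 CPM in siblings. Mutant replicates 1, 5, 7 and 8 lay below every sibling, whereas replicates 2, 3, 4 and 6 lay inside the sibling range, which reached down to sibling replicate 7. The mean was 28.6 ± 29.0 CPM in mutants and 98.7 ± 60.6 CPM in siblings (SD, n = 8 and 7). The log2 fold change was -1.85 (SE 0.56, adjusted p = 0.0296 by edgeR's quasi-likelihood test with Benjamini-Hochberg adjustment over all tested accessions). An exact two-sided permutation test on log2 CPM gave p = 0.0182. The call was lost without mutant replicate 4, 5, 7 or 8 or sibling replicate 4, each left out alone, with an edgeR adjusted p of at most 0.0573. Without mutant replicates 4, 5, 6 and 8 together the log2 fold change was -1.31 (edgeR adjusted p = 0.320), and with the summed epidermis share of each library as a term it was -0.94 (edgeR adjusted p = 0.728).

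cubn, the ligand-binding partner of amnionless, ranged from 2.95 to 112 CPM in mutant libraries with a median of 16.0 CPM, and from 12 to 203 CPM in siblings with a median of 130.1 CPM. Mutant replicates 1, 5 and 7 lay below every sibling, and none lay above. Mean levels were 35.3 ± 39.4 CPM in mutants and 108 ± 77.2 CPM in siblings (SD, n = 8 and 7), a log2 fold change of -1.72 (SE 0.66) that did not pass the threshold (edgeR adjusted p = 0.0781). By exact two-sided permutation of log2 CPM the difference gave p = 0.0522. By edgeR cubn passed when sibling replicate 3, sibling replicate 7 or mutant replicate 2 was left out. The smallest edgeR adjusted p was 0.0289, without mutant replicate 2. By permutation it passed in 5 of 15 cases that left out one library, with an exact permutation p of 0.0206 to 0.0959 over the 15.

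lrp2a, which encodes megalin, had a lowest level of 2.95, a median of 40.4 and a highest level of 83.1 CPM in mutant libraries, against 16.1, 124 and 157 CPM in siblings. Mutant replicates 1 and 7 lay below every sibling and the other 6 within the sibling range. Sibling levels fell into 2 separate sets, with replicates 1, 2, 4 and 6 at 124 to 157 CPM and replicates 3, 5 and 7 at 16.1 to 20.6 CPM. Means were 38.9 ± 28.4 CPM in mutants and 89.7 ± 67.6 CPM in siblings (SD, n = 8 and 7), and the log2 fold change of -1.21 (SE 0.56) was not called (edgeR adjusted p = 0.139, exact permutation p = 0.186). It was called under none of the 26 other settings tried, and without mutant replicates 4, 5, 6 and 8 it was -2.02 (edgeR adjusted p = 0.229), the lowest value, while the highest was -0.70 with limma.

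**Figure D1:**
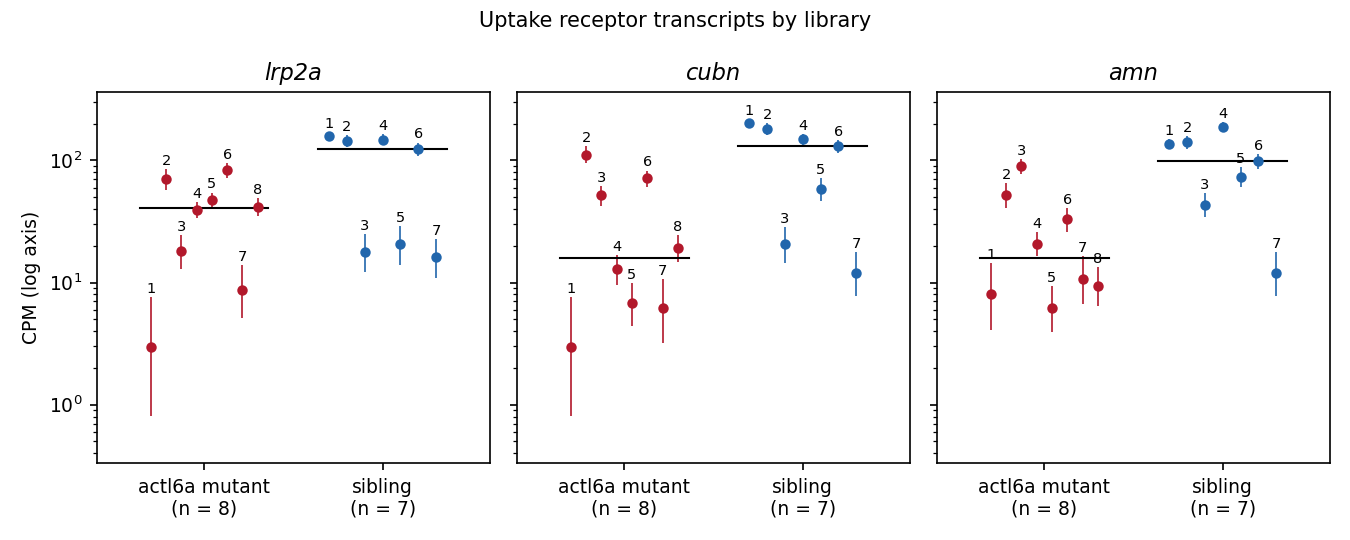
Levels of lrp2a, cubn and amn in CPM on a log axis, one point per library with its replicate number, actl6a mutants left and siblings right. Bars are exact 95% binomial intervals of the count and cover counting error only, and black lines are group medians. Sibling replicates 1, 2, 4 and 6 are the highest of their group in each panel, and mutant replicate 1 holds only 4 counts each of lrp2a and cubn.

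Counting error was small beside the spread between libraries. The lowest value, 4 counts of lrp2a in mutant replicate 1, had an exact 95% binomial interval of 0.805 to 7.56 CPM, while the intervals of sibling replicates 1 and 7 were 144 to 171 and 11 to 22.7 CPM. Near the lowest sibling, replicate 7, it mattered more. For amn its interval of 7.72 to 17.9 CPM overlapped those of mutant replicates 1, 5, 7 and 8, which lay below every sibling. Among mutants that lay below every sibling, such overlap also held for replicates 5 and 7 in cubn and for replicate 7 in lrp2a. A library's level of lrp2a differed by up to 28.1-fold among mutants and 9.79-fold among siblings, that of cubn by 37.8-fold and 16.8-fold, and that of amn by 14.4-fold and 15.5-fold. These ranges describe transcripts per library, and in such bulk fragments fewer proximal tubule cells and less RNA per cell cannot be told apart.

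The receptor and its carrier moved together among libraries of one genotype. Over the 8 mutant libraries log2 CPM of cubn and amn had a Pearson r of 0.845 (exact permutation p = 0.0125, 0.0215 adjusted over 12 relations) and a Spearman rho of 0.762 (exact permutation p = 0.0368, adjusted 0.0490). Over the 7 siblings r was 0.941 (exact permutation p = 0.00198, adjusted 0.00595) and rho 0.857 (exact permutation p = 0.0238, adjusted 0.0408). Without the 2 libraries farthest from the median of cubn, r was 0.826 in mutants and 0.790 in siblings. For lrp2a and amn in mutants the values were r = 0.330 (exact permutation p = 0.425, adjusted 0.425) and rho = 0.238 (exact permutation p = 0.582, adjusted 0.582), and for lrp2a and cubn r = 0.704 (exact permutation p = 0.0511, adjusted 0.0613) and rho = 0.762 (exact permutation p = 0.0368, adjusted 0.0490), with r = 0.255 without the 2 libraries farthest from the median of lrp2a. Differences between these relations were not tested. Since sibling levels of lrp2a formed 2 separate sets, only rho is given for lrp2a in siblings. It was 0.964 with cubn (exact permutation p = 0.00278, adjusted 0.0202) and 0.893 with amn (exact permutation p = 0.0123, adjusted 0.0295). Sibling levels of cubn were split too, with replicates 1, 2, 4 and 6 at 130 to 203 CPM and replicates 3, 5 and 7 at 12 to 58.5 CPM. Sibling values of r and rho may thus rest on these sets.

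The balance between receptors was examined as the log2 ratio of their counts, a comparison added after the levels had been seen. The ratio of lrp2a to amn ran from -2.25 to 2.76 in mutants and from -1.80 to 0.39 in siblings. It was above every sibling in mutant replicates 2, 4, 5, 6 and 8 and below every sibling in mutant replicate 3. Mean ratios were 0.46 ± 1.67 in mutants and -0.34 ± 0.85 in siblings (SD, n = 8 and 7), a difference of 0.81 that did not pass an exact two-sided permutation test (p = 0.269) and turned to -0.49 without mutant replicates 4, 5, 6 and 8. For lrp2a over cubn the means were 0.48 ± 1.29 in mutants and -0.29 ± 0.58 in siblings (SD; exact permutation p = 0.173 with n = 8 and 7), and without mutant replicates 4, 5, 6 and 8 the difference of 0.77 became -0.13. For lrp2a over cubn, leaving out 1 library at a time gave an exact permutation p of 0.0414 to 0.320. The smallest came without mutant replicate 3, which had the lowest ratio of lrp2a to cubn. The mean ratio of cubn to amn was -0.02 ± 0.96 in mutants and -0.05 ± 0.56 in siblings (SD; exact permutation p = 0.934, n = 8 and 7).

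**Figure D2:**
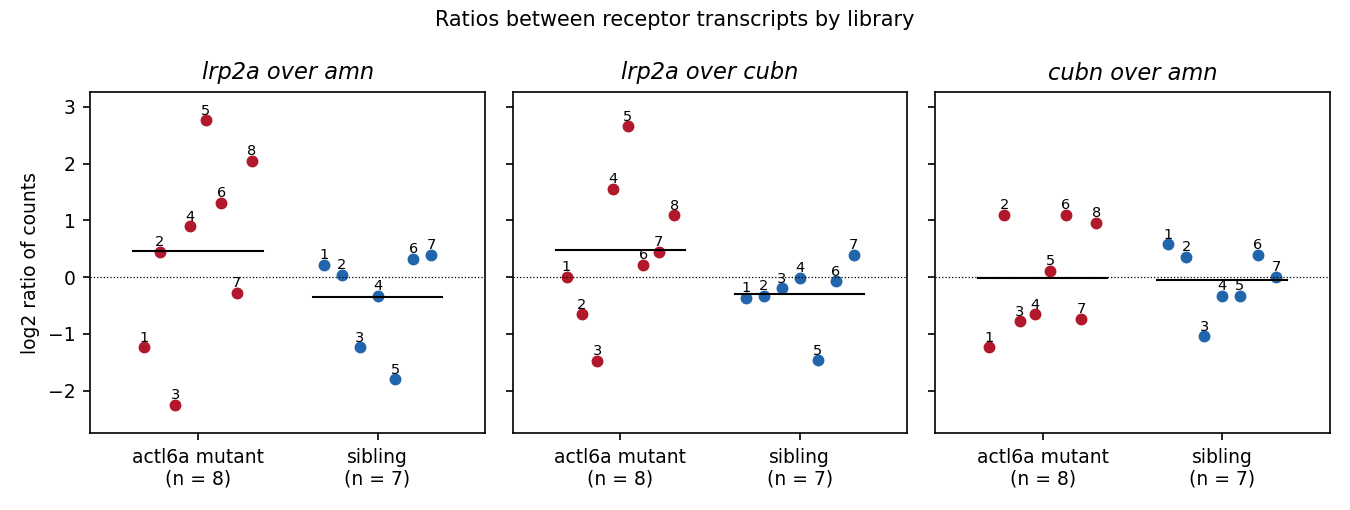
Log2 ratios of counts between pairs of receptor genes, one point per library with its replicate number, actl6a mutants left and siblings right, with group means as black lines. Mutant replicates 4, 5 and 8 have the highest ratios of lrp2a to cubn, while the ratio of cubn to amn spans a similar range in both groups.

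Because fragments of duct were collected, the receptors were also set against other tubule transcripts of the same library. atp1a1a.4, the gene whose promoter drives GFP along the duct, was at 1371 ± 674 CPM in mutants and 1550 ± 358 CPM in siblings (SD, n = 8 and 7) and was not called (log2 fold change -0.18, edgeR adjusted p = 0.669). limma with voom quality weights called it lower (-0.60, adjusted p = 0.0388), whereas its direction turned to 0.27 without mutant replicates 4, 5, 6 and 8 and to 0.17 to 0.44 with the share or detection terms. Relative to atp1a1a.4, amn had a mean log2 ratio of -5.95 ± 1.48 in mutants and -4.31 ± 1.57 in siblings, a difference of -1.64 (exact permutation p = 0.0600, n = 8 and 7). For cubn the difference in that ratio was -1.61 (exact permutation p = 0.135) and for lrp2a -0.83 (exact permutation p = 0.429). Relative to the summed proximal tubule list, described next, amn was lower in mutants by 1.40 on the log2 scale, at -6.20 ± 1.1 in mutants and -4.79 ± 0.69 in siblings (SD; exact permutation p = 0.0152, n = 8 and 7). In 4 of 8 mutant libraries this ratio was below every sibling and in 1, mutant replicate 3, above. For cubn the difference relative to the same list was -1.37 (exact permutation p = 0.0569) and for lrp2a -0.60 (exact permutation p = 0.368). Without mutant replicates 4, 5, 6 and 8 the difference for amn was -1.02 (exact permutation p = 0.124).

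The proximal tubule list held mostly transporters and enzymes of that segment other than the receptors. One of its genes, aqp8a.1, was also on the blood endothelium list. In mutants slc5a1, pdzk1 and slc13a3 had means of 217, 205 and 124 CPM, against 283, 243 and 41.6 CPM in siblings. The sum, and ratios to it, thus depend on a few strong genes and do not measure proximal tubule content alone. Its summed level was 1518 ± 462 CPM in mutants and 2316 ± 941 CPM in siblings (SD, n = 8 and 7), with every mutant inside the sibling range of 949 to 3341 CPM (exact permutation p = 0.0859 on the log2 scale). Sibling replicates 1, 2 and 4 were the highest and sibling replicates 3 and 7 the lowest, as they were for amn. Of 24 tested genes 9 fell and 1 rose, beside 5.54% lower and 13.6% higher over all tested accessions. The median log2 fold change was -0.71 over the list and 0.04 over all tested accessions. The sodium-coupled carriers slc5a11, slc5a12 and slc13a1 had the smallest p-values. slc5a11 was at 8.63 ± 8.27 CPM in mutants and 53 ± 36 CPM in siblings (SD, n = 8 and 7), a log2 fold change of -2.71 (SE 0.54, with an edgeR adjusted p of 0.00286), with 6 of 8 mutants below every sibling. The log2 fold change of slc5a12 was -3.69 (SE 0.78) and that of slc13a1, a sulfate carrier, -2.28 (SE 0.49). Only 2 of 8 mutants lay below every sibling for slc5a12, and 3 of 8 for slc13a1. Sibling replicates 3, 5 and 7 had 2.66 to 7.53 CPM of slc5a12, inside the mutant range of 0 to 19.3 CPM, while the other siblings had 55.8 to 168 CPM. slc13a3, a dicarboxylate carrier named because it was the single gene of the list that rose, changed by 1.54 (SE 0.48, with an edgeR adjusted p of 0.0332), a call that was lost in 9 of 15 fits that left out one library. Without mutant replicates 4, 5, 6 and 8, a fit with 4 mutants that called 511 accessions in all, 0 genes of the list were called lower by edgeR, with 7 lower at an unadjusted p under 0.05.

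**Figure D3:**
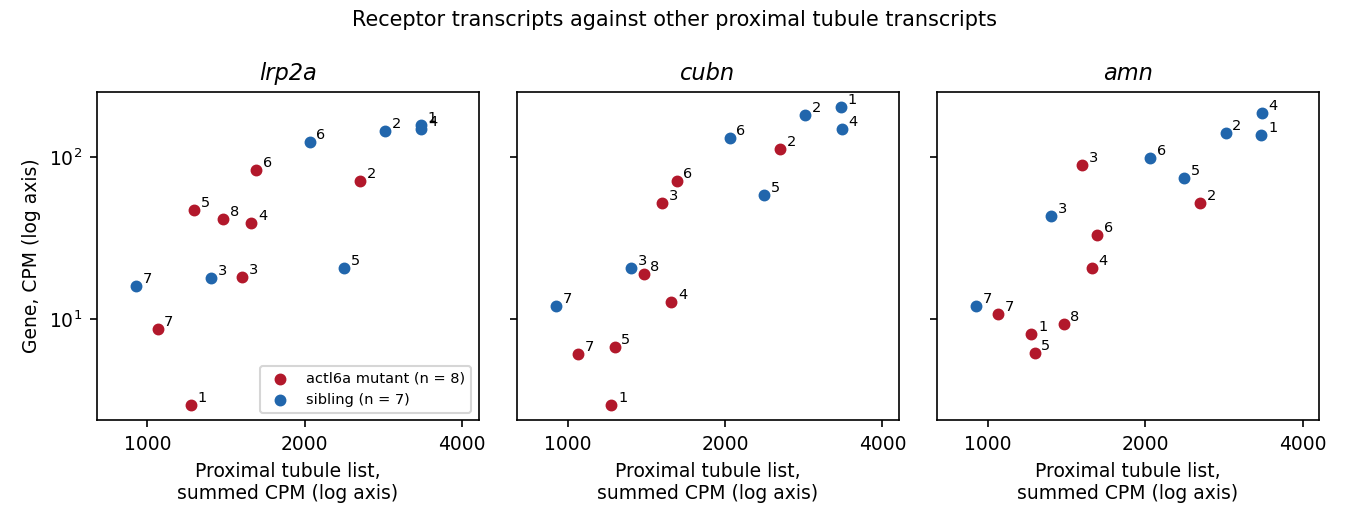
Level of each receptor gene against the summed level of the proximal tubule list, both in CPM on log axes, one point per library with its replicate number. Libraries with a larger proximal tubule sum mostly have more of each receptor transcript, and mutant replicate 1 has the lowest lrp2a and cubn.

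Over the 8 mutant libraries the proximal tubule sum was correlated with cubn (Pearson r = 0.836, exact permutation p = 0.00476, adjusted 0.00952; Spearman rho = 0.905, exact permutation p = 0.00456, adjusted 0.0202). Without the 2 libraries farthest from the median sum r was 0.838. With amn r was 0.688 (exact permutation p = 0.0484, adjusted 0.0613) and rho 0.690 (exact permutation p = 0.0694, adjusted 0.0757), and r was 0.762 without 2 libraries. With lrp2a r was 0.631 (exact permutation p = 0.0955, adjusted 0.104) and rho 0.738 (exact permutation p = 0.0458, adjusted 0.0550), and r was 0.567 without 2 libraries. Among the 7 siblings the sum and amn had r = 0.956 (exact permutation p = 0.00139, adjusted 0.00556) and rho = 0.929 (exact permutation p = 0.00675, adjusted 0.0202), and r = 0.794 without 2 libraries. For cubn in siblings r was 0.941 (exact permutation p = 0.00476, adjusted 0.00952) and rho 0.857 (exact permutation p = 0.0238, adjusted 0.0408), but without 2 libraries r was 0.571, so that relation rested in part on them. For lrp2a in siblings, where levels formed 2 sets, rho was 0.929 (exact permutation p = 0.00675, adjusted 0.0202). These measures share each library's total.

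Receptor partners include chaperones, adaptors and channels that serve the receptors. Of 17 listed genes 14 had a row and 9 were tested, of which 2 were called, both lower. Over all tested accessions 5.54% were called lower, and the count is too small to be read against that share. lrpap1, which encodes the chaperone that keeps ligands off megalin in the endoplasmic reticulum, was at 152 ± 52.5 CPM in mutants and 225 ± 49 CPM in siblings (SD, n = 8 and 7), a log2 fold change of -0.58 (SE 0.19, with an edgeR adjusted p of 0.0458). In 6 of 8 mutants lrpap1 was below every sibling, but the call was lost in 7 of 15 fits that left out one library. ocrl, the inositol phosphatase mutated in Lowe syndrome in humans, was at 66.9 ± 7.46 CPM in mutants and 85.5 ± 11.2 CPM in siblings (SD, n = 8 and 7), a log2 fold change of -0.34 (SE 0.11, with an edgeR adjusted p of 0.0420), a call lost without mutant replicate 3 or 5. The chloride channel genes clcn5a and clcn5b, related to the gene of Dent disease in humans, had log2 fold changes of 0.14 (SE 0.16) and -0.46 (SE 0.36) and were not called. The adaptor gene ldlrap1b, whose product also binds receptor tails, had 1.62 (SE 0.58, with an edgeR adjusted p of 0.0588). Without mutant replicates 4, 5, 6 and 8 neither lrpap1 nor ocrl was called, at -0.38 and -0.44.

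The second megalin gene, lrp2b, named here after its values were seen, did not pass the filter on low counts. It had 1.0 to 23.0 CPM with a median of 8.38 CPM in mutants, against 0 to 8.31 CPM with a median of 2.10 CPM in siblings. Mutant replicates 4, 5, 6 and 8, the deepest mutants and the libraries with the most detected accessions, lay above every sibling. The other mutants lay within the sibling range (exact permutation p = 0.107, n = 8 and 7). One count was worth 0.247 to 0.738 CPM, so the sibling values rest on 0 to 17 counts.

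**Figure D4:**
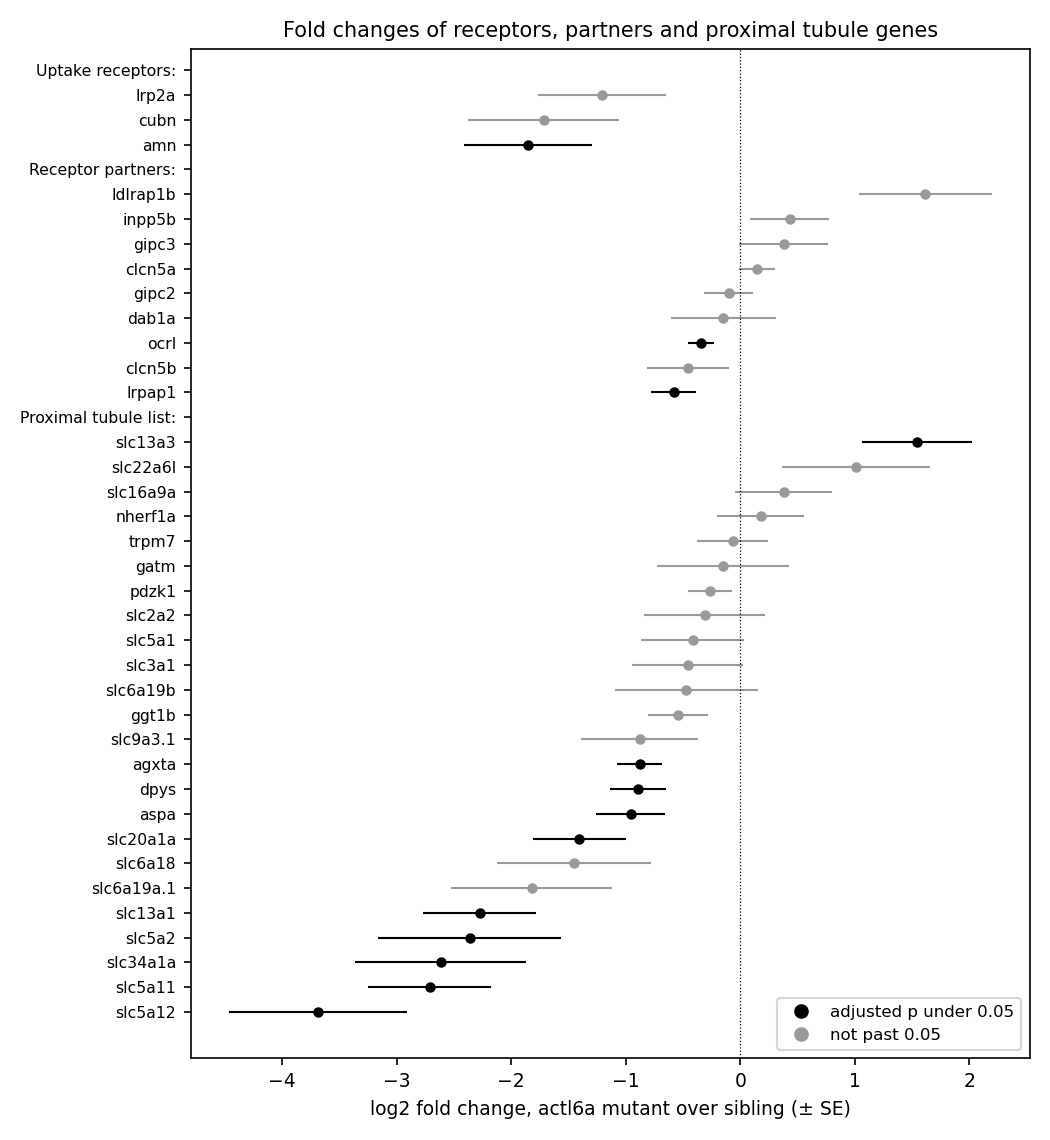
Log2 fold change, actl6a mutant over sibling, with its SE for the receptor genes, their tested partners and the tested genes of the proximal tubule list. Black points passed an adjusted p of 0.05 and grey points did not, and the 3 receptors lie among the lower proximal tubule genes while most partners lie near 0.

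For the later steps of uptake, the shares of all tested accessions to read the counts against are 5.54% lower and 13.6% higher. Of 10 tested genes of the clathrin coat 0 were called by edgeR, with 1 lower and 1 higher at an unadjusted p under 0.05, and 0 by DESeq2, while limma called 1 lower and 2 higher. Their median log2 fold change was -0.10. Among 27 tested genes of endosomes and recycling 2 fell and 1 rose by edgeR, with a median of -0.14, while limma called 8 lower and 4 higher. rab21, a GTPase of early endosomes, was at 46.8 ± 6.86 CPM in mutants and 72.5 ± 13.8 CPM in siblings (SD, n = 8 and 7), a log2 fold change of -0.64 (SE 0.15, with an edgeR adjusted p of 0.00628), with 7 of 8 mutants below every sibling. snx17, a sorting nexin that returns LDL receptor family members to the surface, changed by -0.69 (SE 0.21, with an edgeR adjusted p of 0.0320), a call lost without mutant replicate 4, 5, 6, 7 or 8. rab11bb, a GTPase of recycling endosomes, changed the other way, by 1.33 (SE 0.34, with an edgeR adjusted p of 0.0131).

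For the proton pump that acidifies endosomes, 1 of 16 tested subunits was called by edgeR, and the median log2 fold change was -0.21, while limma called 9 lower and 1 higher. The one that fell, atp6v1ab, a catalytic A subunit, was at 21.4 ± 9.06 CPM in mutants and 50.2 ± 18.4 CPM in siblings (SD, n = 8 and 7), with 5 of 8 mutants below every sibling and a log2 fold change of -1.23 (SE 0.28, with an edgeR adjusted p of 0.00643). In the lysosome list 1 of 21 tested genes fell and 3 rose by edgeR, counts near those shares, with a median of 0.14, and limma called 2 lower and 5 higher. ctsa, the protective protein of lysosomal glycosidases, changed by -0.45 (SE 0.14), ctsc, a dipeptidyl peptidase, by 1.21 (SE 0.32), and ctns, the cystine exporter, by 0.60 (SE 0.18). tfe3a, a transcription factor of lysosome genes named because it was the one call left of this list, changed by 0.80 (SE 0.26). The calls of ctns and tfe3a were lost in 10 and 13 of 15 fits that left out one library. None of rab21, rab11bb, snx17, atp6v1ab, ctsa, ctsc, ctns and tfe3a was called without mutant replicates 4, 5, 6 and 8.

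Of the other LDL receptor family genes 2 were tested and 0 were called by edgeR or DESeq2, with 0 at an unadjusted p under 0.05 in either, while limma called 1 higher. ldlra had a log2 fold change of 0.26 (SE 0.16) and lrp10 of 0.10 (SE 0.15). Among 8 tested genes of the list of tubule transcription factors 2 were called, both higher and both of the caudal family. Over all tested accessions 13.6% were called higher, and the count is too small to be read against that share. cdx1b, which acts in the intestine, was at 137 ± 94.9 CPM in mutants and 0.601 ± 1.01 CPM in siblings (SD, n = 8 and 7). It was also on the enterocyte list, so its call is counted in both, and it passed the low count filter only through mutants. All 8 mutants lay above every sibling, which held for 1.57% of all tested accessions. cdx4 changed by 2.89 (SE 0.59), against 1.66 and no call without mutant replicates 4, 5, 6 and 8. Of the factors known to act on tubule genes, 3 that were tested were not called: hnf1ba had 0.07 (SE 0.90), hnf1bb -0.17 (SE 0.22) and hnf4a 0.83 (SE 0.62). Among the genes of this list that did not pass the filter on low counts, named here after their values were seen, hnf4b was at 16.5 ± 19.9 CPM in mutants and 0.0596 ± 0.158 CPM in siblings (SD, n = 8 and 7), with all 8 mutants above every sibling. The share of 1.57% covers tested accessions and so does not apply to hnf4b. lhx1a was at 5.17 ± 4.05 CPM in mutants and 1.26 ± 1.02 CPM in siblings (SD, n = 8 and 7), with 6 of 8 mutants above every sibling. The other genes of this list below the filter separated less. lhx1b had 3 mutants above every sibling, rxrab 2 above and 1 below, and hnf4g 0. No share over accessions below the filter is given.

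The intestine shares cubn and amn, so its markers were measured in the same libraries. The enterocyte list had rows for 19 of 24 genes, and its summed level was 1507 to 5039 CPM in mutants and 954 to 1347 CPM in siblings, with all 8 mutants above every sibling. Most of the sibling sum came from 1 gene, cdh17, with a mean of 899 CPM beside a mean sum of 1180 CPM. The sibling sum is thus no measure of enterocyte content alone. In mutants cdh17 had a mean of 736 CPM beside a mean sum of 2147 CPM. It was not called (log2 fold change -0.30, edgeR adjusted p = 0.443). Among single tested accessions such a complete separation upward held for 1.57%, a share that does not cover summed lists. Of 12 tested genes 8 were called, all higher, beside 13.6% called higher over all tested accessions. Some of these were near 0 in siblings, such as fabp1b.1 at 294 CPM in mutants and 0.669 CPM in siblings. For rbp2a the means were 103 and 0.275 CPM. Such genes, with fabp6 and cdx1b, passed the low count filter only through mutants. Their calls upward were thus partly set by the filter and the count is no independent support. In siblings the median level of 6 of the 19 genes was 0, as it was for 3 in mutants. fabp6, a bile acid binding protein of the distal intestine picked out after its values were seen, was at 84.4 ± 108 CPM in mutants and 1.02 ± 0.941 CPM in siblings (SD, n = 8 and 7). Tested genes of the enterocyte list other than cdh17 were thus mostly higher in the group in which amn was lower, and their part in the receptor levels was not tested. Scavenger endothelium, which also takes up protein, had a list that summed to 135 to 793 CPM in mutants and 68.9 to 520 CPM in siblings, with only sibling replicate 1 above 91.7 CPM among siblings.

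**Figure D5:**
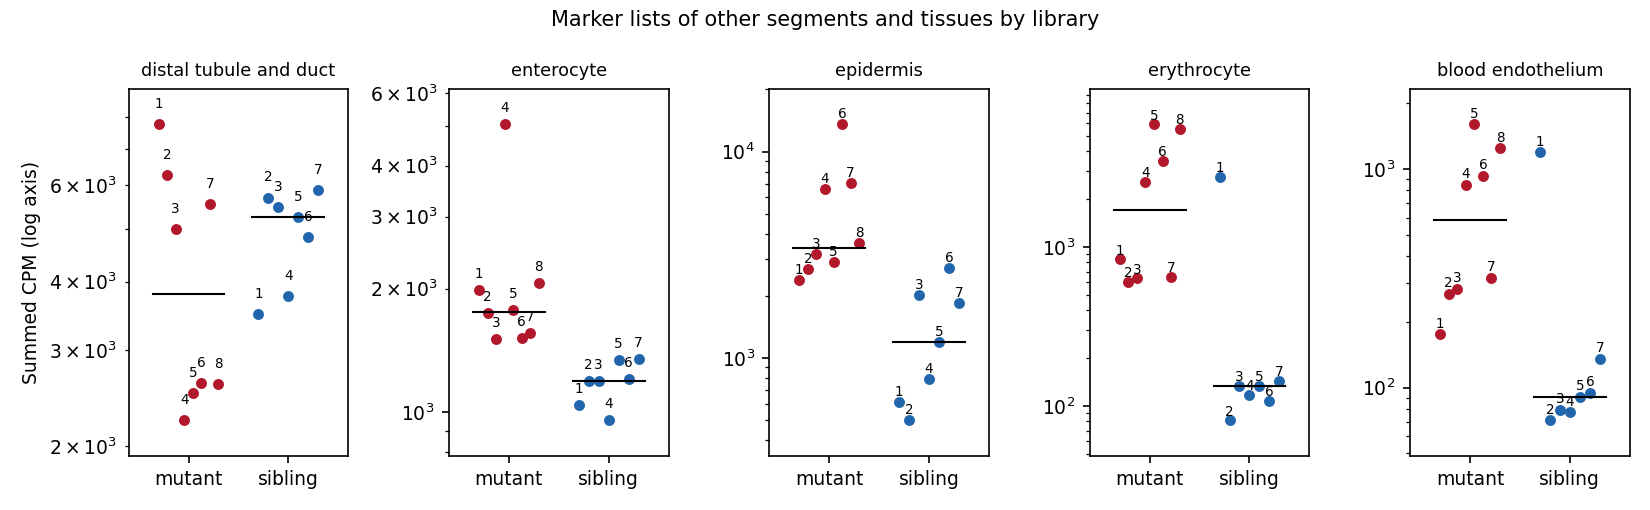
Summed CPM, on log axes, of marker lists for the distal tubule and duct, enterocytes, epidermis, erythrocytes and blood endothelium, one point per library with its replicate number, actl6a mutants left and siblings right, with group medians as black lines. Mutant replicates 4, 5, 6 and 8 have the lowest distal sums and the highest erythrocyte and endothelium sums of the mutants, and sibling replicate 1 stands above the other siblings in the last 2 panels.

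The distal tubule and duct list summed to 4308 ± 2105 CPM in mutants and 4910 ± 943 CPM in siblings (SD, n = 8 and 7). Mutant replicates 4, 5, 6 and 8, at 2232 to 2608 CPM, lay below every sibling, and mutant replicates 1 and 2 above. Mutant replicate 1, which had the lowest lrp2a and cubn, thus had the highest distal sum, 7747 CPM. Of 9 tested distal genes 0 were called by edgeR or DESeq2, with 0 at an unadjusted p under 0.05 in either, whereas limma with voom quality weights called 6 lower.

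Genes whose levels followed each receptor most closely were sought among 8752 accessions with a symbol and a mean of at least 10 CPM, by Pearson r of log2 CPM over the 15 libraries after each group's mean was removed. These are descriptions, and all values share the library total. Closest to cubn were slc22a21, a carnitine carrier of the organic cation family (r = 0.949), zgc:92040 (0.937) and ass1, argininosuccinate synthase (0.920). amn followed LOC100538302 (0.945), hao2, a hydroxyacid oxidase (0.932) and ugt5g1, a glucuronosyltransferase (0.924). For lrp2a they were the water channel gene aqp11 (0.924), the alanine aminotransferase gene gpt (0.923) and lbh (0.922). cubn ranked 10 for amn and amn 12 for cubn, while lrp2a ranked 56 for cubn and 309 for amn. Of these 9 genes, hao2 (log2 fold change -0.68, edgeR adjusted p = 0.0206) and slc22a21 (-2.13, edgeR adjusted p = 0.0490) fell in mutants and the others were not called. The call of slc22a21 was lost in 11 of 15 fits that left out one library. Neither was called without mutant replicates 4, 5, 6 and 8.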

How the data were processed

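RNA sequencing counts of 8 mutant and 7 sibling libraries were used. The 2 tables that the authors deposited hold unnormalized counts for RefSeq accessions. Per the file headers there is one table per sequencing index with a column per barcode, matched to samples by the barcode in the labels. The submitters' processing notes name cutadapt, FastQC, STAR, featureCounts, edgeR and the build GRCz11, with no role or order, and whether reads or molecules were counted is not given in the sources used here. An accession listed in one table was set to 0 in the other. Symbols came from a RefSeq table of the assembly GRCz12tu, used for names alone, in which 20452 of 33298 accessions matched with the version ignored. Counts of near-identical genes are uncertain.

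The mutant and sibling groups were compared in R 4.3.3 by edgeR 4.0.16 (TMM normalization, filterByExpr by group, robust glmQLFit, glmQLFTest), with Benjamini-Hochberg adjustment over 12914 tested accessions and a threshold of 0.05. A log2 fold change sets mutants over siblings, and its SE is its size over the square root of F. Levels are CPM with TMM factors (0.867 to 1.12), and log2 values used a prior count of 2. Single values were compared by exact two-sided permutation over 6435 splits, for which the smallest p is 0.000155. The edgeR script was tested on simulated counts in which 200 of 12520 genes were changed. It recovered 60% of those changed by 2 log2 units and 30% of those changed by 1, and 7.22% of its 97 calls were false. Alternatives used DESeq2 1.42.0 and limma 3.58.1, and plots Python 3.11.15 with matplotlib 3.10.9. A count of 0 allows up to 3 counts, 0.742 to 2.21 CPM by library, and such floors and all binomial intervals cover counting error only.

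The genes, lists and tests were chosen with earlier results of these data known. Named from each list were up to 3 called genes with the smallest p-value, other genes as stated. No set test was run.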

Additional observations from a re-analysis of the deposited data

Results flagged for a closer look

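Groups of 7 or 8 libraries were searched for a single library far from the rest by Dixon's test at 95%, over the receptor levels, their ratios and the summed marker lists. Of 58 such groups 9 held one, where chance gives about 2.9, and measures of one tissue are not independent. Among the ratios of receptors to tubule markers, only the log2 ratio of amn to the proximal tubule list stood out, in sibling replicate 7, at -6.20 against -4.99 in the nearest sibling. Mutant replicate 2 had the highest sums of its group for the proximal tubule list, at 2550 CPM against 1616 CPM in the next mutant, and for the receptor partners, at 846 against 662 CPM. Mutant replicate 4 had an enterocyte sum of 5039 CPM, with the next mutant at 2063 CPM. Mutant replicate 6 had an epidermis sum of 13526 CPM, with the next mutant at 7063 CPM. Sibling replicate 1 stood apart for the most lists: 520 CPM for scavenger and venous endothelium, 1194 CPM for blood endothelium, 2755 CPM for erythrocytes and 152 CPM for neurons, against at most 91.7, 136, 144 and 36.1 CPM in the other siblings. It was also among the 4 siblings with the highest levels of lrp2a, cubn and amn.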

How the results depend on the processing

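Fold changes of lrp2a, cubn and amn stayed below 0 in all 26 alternative fits, and whether amn passed the threshold depended on the setting. amn kept its call with RLE factors, library totals, DESeq2, limma with voom quality weights and summed accessions. It was -1.85 and not called at an adjusted p under 0.01, -1.95 (edgeR adjusted p = 0.0589) with no filter on low counts, -1.72 with detected accessions as a term, -1.60 with the share of erythrocyte and endothelium markers as a term, -0.94 with the epidermis share as a term and -1.31 without mutant replicates 4, 5, 6 and 8. In each of these settings, and with the replicate block, 0 of the 3 receptors were called by their tool at an adjusted p under 0.05 or, in the first, 0.01. The replicate block gave amn -1.80 (edgeR adjusted p = 0.0570), and 1357 calls among all accessions. Deviations of libraries with the same number correlated at -0.536 to 0.257, and 2 of 7 mutants correlated best with the sibling of their own number, so the numbers were not taken as pairs. All-accession calls, 2476 of 12914 with all libraries and no added term, were 90 with the epidermis term, 775 with the erythrocyte and endothelium term, 1334 with the detected term, 511 without mutant replicates 4, 5, 6 and 8, 1621 without mutant replicate 8, 3960 of 33068 with no filter and 5566 with limma. Leaving out one library at a time gave -2.39 to -1.70 for amn, -2.21 to -1.55 for cubn and -1.49 to -1.06 for lrp2a, with 0 to 2 receptors called lower.

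By permutation, the difference in log2 CPM without one library was -2.36 to -1.72 for amn, -2.32 to -1.56 for cubn and -1.43 to -0.72 for lrp2a. cubn passed with library totals only (-1.93, exact permutation p = 0.0486), and amn did not without mutant replicates 4, 5, 6 and 8 (-1.53, exact permutation p = 0.121), nor did its ratio to the proximal tubule list (-1.02). Without one library that ratio was -1.70 to -1.22 for amn, -1.61 to -1.07 for cubn and -0.87 to -0.23 for lrp2a, and the ratio to atp1a1a.4 -2.13 to -1.32, -2.09 to -1.11 and -1.20 to -0.27.

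Pathway lists held 6 lower and 6 higher calls among 93 tested genes, beside 5.54% lower and 13.6% higher over all tested accessions. Lower calls were 2 at an adjusted p under 0.01, 11 with library totals, 23 with limma, 1 with the replicate block, the detected term or the erythrocyte and endothelium term, 0 with the epidermis term and 0 without mutant replicates 4, 5, 6 and 8, and 3 to 14 without one library (14 without mutant replicate 1, 11 without mutant replicate 2, 10 without sibling replicate 1, 3 without mutant replicate 5). Higher calls were 2 at 0.01, 17 with limma, 2 with the erythrocyte and endothelium term, 1 with the epidermis term, 1 without the 4 mutants and 4 to 8 without one library. Without those 4 mutants, a check chosen after seeing the data, calls fell to 0 lower in the proximal tubule list, 5 higher in the enterocyte list and 3 higher in the epidermis list, against 9, 8 and 12 with all libraries. atp1a1a.4 turned from -0.18 to 0.32 with the detected term, 0.44 with the erythrocyte and endothelium term, 0.17 with the epidermis term and 0.27 without the 4 mutants, and limma called it lower (-0.60). The cause of these changes was not tested. lrp2b did not pass the filter on low counts, so no fold change is given for it.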
